A study of Bos taurus with 18 samples.

Results

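The cytosines described here lie on bovine chromosome 17, at chr17:35643699-35648283 of the build bosTau8. The ends of this span were set by cytosines that the study listed as differential and assigned to IL2. The members are all 331 measured cytosines in a CpG context between those ends, of 31500 in the whole series, and span 4585 bp. All are called cytosines assigned to IL2 here, whether or not the study listed them. The study's assignment is by the nearest start site. IL2 itself lies well outside the span, so the span is not the promoter of IL2. The cytosines outside the span were not added, although 20 more were measured within 100 kb of its middle. No bosTau8 annotation was used here, so whether the span is intronic or intergenic, and its sequence, are not given. In the RefSeq annotation of a later assembly, ARS-UCD2.0, the protein-coding neighbours of IL2 are IL21 and ADAD1.

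Methylation was measured by RRBS, which reads CpG-rich fragments of restriction-cut DNA after bisulfite has converted unmethylated cytosines and spared methylated ones. The cells were EBTr, an established line of tracheal fibroblasts from a bovine embryo, and all libraries come from this 1 line. The medium of every treatment was Eagle's minimum essential medium with fetal bovine serum, antibiotics and sodium pyruvate. Cells were grown in Low (1 g/L) or High (4.5 g/L) glucose, each with epigenetic modifiers (EM) at basal (Control), ×2.5 or ×5 concentration, with 3 libraries for each of the 6 treatments. The modifiers were methionine, vitamin B12, choline and folate. For methionine, the labels give the same multiples as for the other modifiers, while the study's methods state a lower multiple in the supplemented media. No label says that the 3 libraries of a treatment came from separate cultures, so p-values measure the spread between these libraries, which may be technical.

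IL2 encodes interleukin 2, a growth factor for T cells that is made mainly by activated T cells. It binds a receptor of the subunits IL2RA, IL2RB and IL2RG, and signals through the kinases JAK1 and JAK3 to STAT5A and STAT5B. DNA methylation in mammals is found mostly at CpGs, where the cytosines of both strands are usually methylated alike, since the maintenance enzyme DNMT1 copies the mark to the new strand after replication. The modifiers given to these cells feed the cycle that makes S-adenosylmethionine, the methyl donor of this reaction. IL2 mRNA was not analysed here. A list of 22 other genes held the receptor subunits, kinases and STAT5 genes, further genes of the pathway and some other interleukins. Of these, 0 were named in the gene assignments used, so IL2 was described alone. Those assignments cover only cytosines that the study listed as differential, so other cytosines near these genes may have been measured.

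The values deposited are M-values, log2 ratios of methylated to unmethylated reads. Each was turned into a methylation level in percent, the share that the ratio implies. The number of reads behind a value is unknown, so no counting interval can be given.

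The span was highly methylated in every treatment. The level of its cytosines, averaged over 18 libraries, had a median of 82.0% and ran from 18.96% to 96.6%, against a median of 75.5% over all 31500 cytosines. At 90% or over were 84 members, or 25.4%, against 10.7% of all cytosines. Another 96 members (29.0%) were at 80% to 90% and 118 (35.6%) at 50% to 80%, where the shares of all cytosines were 30.2% and 39.2%. Only 21 members were at 30% to 50% and 12 under 30%, or 6.34% and 3.63%, against 13.2% and 6.71% of all cytosines. The profile of levels along the span shows that 7 of the 12 members under 30% lay in 1 short run and the other 5 among higher cytosines.

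**Figure D1:**
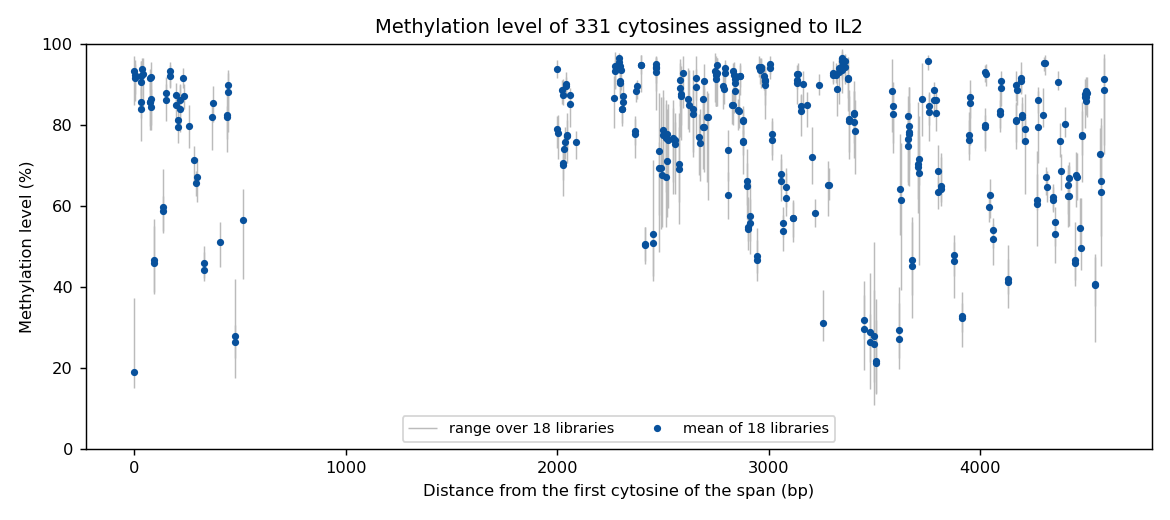
Methylation level (percent) of each of the 331 cytosines assigned to IL2, as the mean (points) and range (grey lines) of 18 libraries, against the distance in bp from the first cytosine of the span. Most points sit above 80%, no cytosine was measured in a gap of 1485 bp, and a group of low points stands to the right of the middle.

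The members fell into 2 segments with a gap of 1485 bp between them, in which no cytosine was measured. The first, chr17:35643699-35644212, holds 48 cytosines of 28 CpGs in 514 bp. The second, chr17:35645697-35648283, holds 283 cytosines of 152 CpGs in 2587 bp. The segments had nearly the same mean level, 76.2% in the first and 76.4% in the second, with library means of 75.0% to 77.0% and of 75.6% to 77.1%. Just outside the span, the pair at 35643697 and 35643698 was at 91.8% and 92.7%, and the 7 cytosines from 35648287 to 35648318 were at 77.8% to 91.8%, which are levels usual within the span. Farther out before the start, 35643617, 35643608 and 35643589 were lower, at 47.1%, 49.4% and 55.0%.

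Neighbouring CpGs often differed in level. Of 172 pairs of neighbouring CpGs at most 50 bp apart, the median step was 8.12 percentage points, and 25 steps (14.5%) were over 30 points. The largest was a drop from 89.0% at 35644142 to 27.1% at 35644176, over 34 bp. It was followed in size by 35646937 (89.9%) and 35646956 (31.0%), 19 bp apart, and by 35647285 (83.7%) and 35647314 (28.2%), 29 bp apart. These steps were chosen for their size and are given as a description.

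The longest run of CpGs under 50% held 4 CpGs, with 8 cytosines, at chr17:35647147-35647205. Its cytosines were at 21.2% to 31.8%, while the CpG before it, 43 bp away, was at 79.6% and the CpG after it, 75 bp away, at 88.3%. The mean of the run lay between 23.9% and 29.8% in all 18 libraries, with a median of 26.5%, so the low level was shared by every treatment. In Low Control, the 3 libraries were at 29.2%, 28.0% and 29.8%. In Low ×2.5 they were at 26.6%, 26.2% and 24.6%, and in Low ×5 at 24.4%, 27.0% and 25.2%. Low Control thus did not overlap with the other Low treatments, but libraries of High ×2.5 (28.8%) and High ×5 (28.5% and 28.9%) reached its range. The run was picked after its levels were seen, so no test was made. How often other runs of CpGs separate treatments in this way was not counted, so the lack of overlap is only a description.

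Some distances between CpGs of the span recurred. Of all distances from 10 to 200 bp between CpGs of the span, 73 bp was the most frequent, with 23 pairs against a median of 9 per distance. Distances of 35 and 103 bp, which are not multiples of 73 bp, had 18 pairs each. In the whole table, 454 pairs of CpGs were 73 bp apart, fewer than the median of 537 per distance. There were 6 doublets, CpGs 4 bp apart with another such doublet 72 or 73 bp away. All their CpGs were at 76.9% to 92.9%, where the median over members was 82.0%. Doublets 73 bp apart start at 35647646, 35647719, 35647792 and 35647865, and doublets 72 bp apart start at 35644066 and 35644138. CpGs between doublets were lower, at 51.0% at 35644104, at 61.2% and 52.9% at 35647742 and 35647757, and at 41.6% at 35647830. Between the doublets at 35647646 and 35647719 no CpG was measured. After the doublet at 35644138, the CpG at 35644176 was at 27.11%. After that at 35647865, the CpGs at 35647891, 35647897 and 35647908 were high, at 91.15%, 82.25% and 77.46%. The pattern was noticed in the data, and the sequence that underlies it was not read.

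Both strands could be compared at most CpGs. Cytosines at adjacent positions are the 2 strands of 1 CpG, and the 331 members form 180 CpGs, of which 151 were measured on both strands and 29 on 1 strand. The share with both strands was 83.9%, against 24.5% over the 25294 CpGs of the table. Among the 163 regions of the table with 50 or more cytosines (regions being separated by over 10 kb), the region that holds the span ranked 13 by this share, with 79.1% against a median of 23.4%. It ranked 12 of 612 regions by its number of cytosines, 351 against a median of 19.

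Levels of the strands were close. Averaged over 18 libraries, the strands of a CpG differed by a median of 1.21 points, and by 2.85 points at the 90th percentile, against 1.77 and 6.72 points over the 6206 CpGs of the table with both strands. Only 3 of 151 CpGs (1.99%) had strands over 10 points apart, against 5.40% in the table. Across the 151 CpGs, the correlation of the strands was r = 0.939, and r = 0.996 over the 148 CpGs without those 3, where the points share libraries and the largest difference was 6.78 points. The plot of both strands shows them on the diagonal with a single point far from it.

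**Figure D2:**
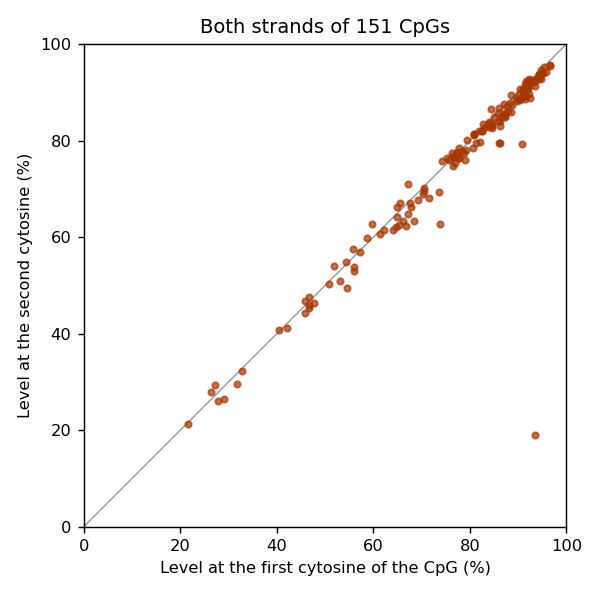
Mean level over 18 libraries (percent) at the first and at the second cytosine of each of 151 CpGs of the span, with the line of equal levels. All but 3 CpGs lie within 10 points of the line, and 1 stands at 93.4% and 18.96%.

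The CpG far from the diagonal is the first of the span. Its cytosine at 35643699 was at 93.4% and its partner at 35643700 was at 18.96%, the lowest level of any member. The gap of 74.5 points was found in every library, where it ran from 56.6 to 80.3 points. In Low Control, 35643699 was at 96.2%, 85.0% and 90.0%, and 35643700 at 20.0%, 15.6% and 15.9%. The High ×5 libraries were at 93.8%, 93.1% and 95.3% at 35643699, and at 37.2%, 16.5% and 18.3% at 35643700. The cytosines 35643697 to 35643700 are contiguous, and the first 3 of the 4 are over 90%. The other CpGs with strands over 10 points apart were 35646392 (90.9% and 79.4%) and 35646506 (73.8% and 62.8%). At the other end of the span, 35648283 was at 88.7% and its partner 35648282 at 91.4%. Within treatments, 35648283 had the largest SD of all members (0.949 on the log2 scale), with 76.9%, 97.5% and 94.4% in Low ×2.5 and 72.7% in High Control replicate 2.

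At the top of the range, the CpG at 35645992 was at 96.6% and 95.6% on its strands, and no library of either cytosine was under 93.2%. The levels of members moved little between libraries. The SD of M-values within treatments had a median of 0.281 on the log2 scale, against 0.425 over all cytosines, and the range of the level over 18 libraries had a median of 9.92 points against 17.5 points. The smaller spread was seen at matched levels. For 118 members at 50% to 80%, the SD of the level over 18 libraries had a median of 3.11 points, against 5.75 over all 12352 cytosines of these levels. For the 84 members at 90% or over, it was 1.83 against 2.23 points. Read depth can set this spread, and its part was not tested, since the values hold no depth.

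Differences between cytosines made up nearly all the variation in the level. Of its variance over 331 cytosines and 18 libraries, 96.6% lay between cytosines and 0.0660% between libraries, of which 0.0191% lay between treatments. The treatment differences that varied from cytosine to cytosine made up 0.967%, and 2.33% was left. These are raw shares, and the spread between libraries of the same treatment adds to both treatment shares. They therefore do not measure an effect of treatment. Over all 31500 cytosines, 94.3% lay between cytosines and 1.66% was of treatment by cytosine. The median correlation of the 2 strands of a CpG over 18 libraries was 0.0317, against 0.0729 over all CpGs with both strands.

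The mean level of the span was nearly the same in all 6 treatments. It was 76.1% ± 0.696 (SD, n = 3) in Low Control, with libraries at 76.9%, 76.0% and 75.5%. In Low ×2.5 it was 76.5% ± 0.491 (76.0%, 77.0% and 76.5%), and in Low ×5 76.6% ± 0.353 (76.9%, 76.7% and 76.2%). In High Control it was 76.7% ± 0.0342, and the 3 libraries lay between 76.68% and 76.75%. High ×2.5 was at 76.2% ± 0.654 (76.9%, 76.1% and 75.6%), and High ×5 at 76.1% ± 0.282 (76.2%, 75.7% and 76.3%). All 18 libraries were thus within 1.44 points, between 75.5% and 77.0%, while the means of all other cytosines ranged over 2.84 points, from 67.1% to 70.0%.

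**Figure D3:**
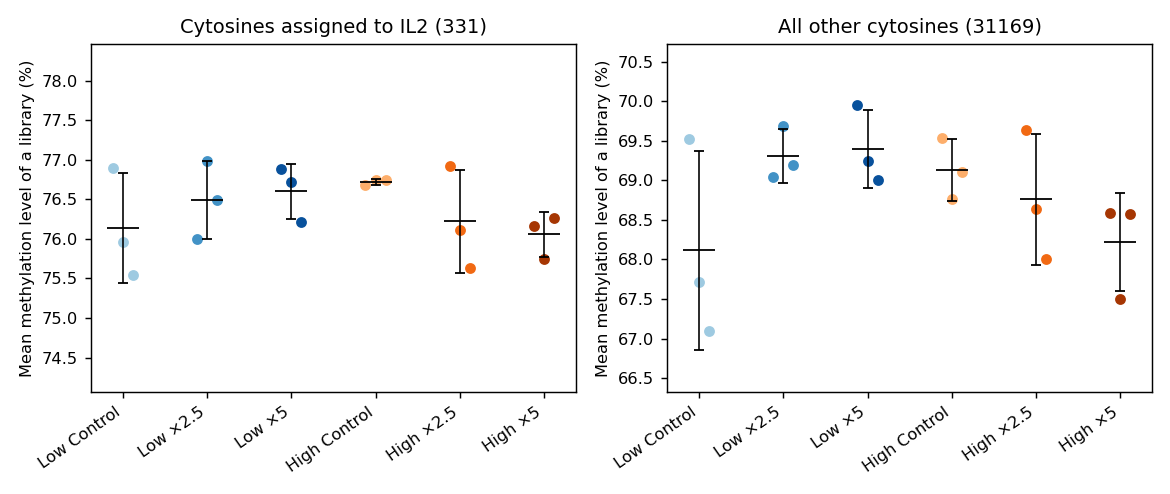
Mean methylation level (percent) of the cytosines assigned to IL2 (left) and of all other cytosines (right) in each library, by treatment, with the mean and SD of 3 libraries as black marks. Both axes cover 4.4 points and do not start at 0. The IL2 values lie between 75.5% and 77.0%, and the libraries low on the right tend to be low on the left.

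In 9 of the 10 contrasts of treatments the libraries of both groups overlapped in the span mean. In exact two-sided permutation tests, where 3 libraries against 3 cannot give a p under 0.1, the p-values were 0.1 to 0.9. The largest difference and the only one without overlap was High ×5 vs. High Control, -0.666 points, in which the 3 High ×5 libraries were all below the 3 High Control libraries (exact p = 0.1, the smallest possible). All other cytosines differed by -0.915 points in that contrast, also without overlap. Low ×5 vs. Low Control was 0.469 points (exact p = 0.4), and High Control vs. Low Control 0.589 points (exact p = 0.4), and in both the groups overlapped. With all 18 libraries, High vs. Low over EM levels was -0.0763 points (exact p = 0.756). With 12 libraries, ×5 vs. Control over glucose levels was -0.0984 points (exact p = 0.740), and ×2.5 vs. Control -0.0716 points (exact p = 0.835). The direction of 8 of the 10 contrasts was the opposite after libraries were centred on their median M-value, so no direction is given to the span as a whole. On the log2 scale of M-values, the median difference of members in the 10 contrasts was between -0.081 and 0.056, and that of all cytosines between -0.096 and 0.10.

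The span mean moved with the level of the whole library. Over 18 libraries, it correlated with the mean level of all other cytosines at r = 0.893 and Spearman's rho = 0.876, both with a permutation p of 1e-05, the smallest that 100000 permutations can give. Without Low Control replicate 3 and High ×5 replicate 2, the libraries farthest from the median, r was 0.843 over 16 libraries, and within treatments it was 0.908. This was the only relation tested. Among 611 other regions of the table, those most like the span over the 18 libraries were chr7:93155652-93166572 (163 cytosines, assigned to ARRDC3, r = 0.914), chr4:66525714-66550061 (133 cytosines, assigned to ZNRF2, r = 0.910) and chr9:65872611-65874010 (188 cytosines, assigned to CEP162, r = 0.891). The median over regions was 0.502, and all regions share the libraries.

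Single cytosines were then compared in a limma fit of all 31500 cytosines and 18 libraries, and a cytosine was called at an unadjusted p under 0.01, the threshold of the study. Cytosines of the span had been listed as differential from these same libraries, and such listing set its ends, so the counts are a description. In the 10 contrasts together, 33 of 3310 tests of members were called, or 0.997%, against 1.49% over all cytosines. Of these, 15 were higher in the treatment named first, where the background is 0.756%, and 18 were lower, where it is 0.736%. With libraries centred on their median, 11 were higher and 22 lower. No member passed an adjusted p under 0.05 in any of the tests, and the smallest adjusted p of a member in the 10 contrasts was 0.363. At an unadjusted p under 0.05 there were 156 of the 3310, against 6.42% of all cytosine tests. Of the 331 members, 308 were called in no contrast, 14 in 1 contrast, 8 in 2 and 1 in 3.

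In Low cells, 5 members were called in Low ×2.5 vs. Low Control (background 2.0%), and 6 in Low ×5 vs. Low Control (background 2.40%). All 6 of the latter were higher in Low ×5, a direction in which 1.78% of all cytosines were called. With centred libraries the split was 2 higher and 3 lower, and that of all cytosines turned from 562 higher and 195 lower to 306 and 412. In Low ×5 vs. Low ×2.5, limma called 0 members at p under 0.01 and 7 at p under 0.05, where 0.371% and 2.39% of all cytosines were called. In High cells, the counts were 3 in High ×2.5 vs. High Control (1.02%), 1 in High ×5 vs. High Control (1.37%) and 4 in High ×5 vs. High ×2.5 (1.47%). Between glucose levels, 3 were called in High Control vs. Low Control (1.92%), 1 in High ×2.5 vs. Low ×2.5 (1.01%) and 2 in High ×5 vs. Low ×5 (1.61%). High ×5 vs. Low Control had the most, 8 (1.75%), of which 6 were lower in High ×5, where the background is 0.813%. Contrasts share treatments, so the counts are not independent of each other.

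**Figure D4:**
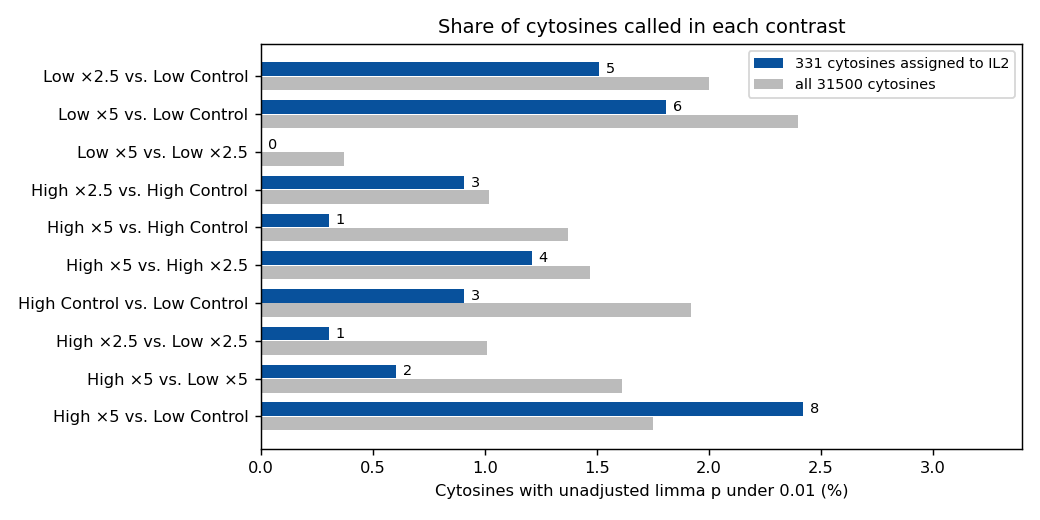
Share of cytosines with an unadjusted limma p under 0.01 in each of the 10 contrasts, for the 331 cytosines assigned to IL2 (blue, with their number) and for all 31500 cytosines (grey). The blue bar is shorter than the grey bar in 9 contrasts, and longer in High ×5 vs. Low Control, with 8 members.

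Tests over more treatments gave few members. The F-test of 6 treatments called 2 (background 1.44%), High vs. Low over EM levels called 1 (1.08%), and the glucose by EM interaction called 5 at ×5 (2.79%) and 1 at ×2.5 (1.85%). The 5 members of the ×5 interaction all had negative estimates, that is, a lower response to ×5 in High than in Low, as had 701 of the 880 cytosines called in the table (2.23% of all cytosines). With centred libraries, 1 member was positive and 2 were negative, and 381 and 364 cytosines of the table. When cytosines were replaced by means over clusters, of at least 3 cytosines under 100 bp apart, the span fell into 3 clusters, which take in neighbours just outside it, and 0 of their 30 tests in limma were called (background 1.84%), with 1 at p under 0.05. For the region as a whole, which adds the 20 cytosines outside the span, 0 of 10 contrasts were called (background 2.04%), and 0 had p under 0.05. The 95% intervals of its differences in the 10 contrasts lay between -0.240 and 0.241 on the log2 scale, and the interaction at ×5 was -0.182 (95% interval -0.381 to 0.0181, limma adjusted p = 0.191).

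The strand partner of a called member was not called. Of the 33 calls, 31 had a partner, of which 0 were called in the same contrast and 15 (48.4%) had the same sign. Over all calls of the table with a partner, 2.18% of partners were called and 60.1% had the same sign. With both strands averaged into 1 value per CpG before the fit, an alternative added after seeing the data, 14 of 1800 tests of the span were called, or 0.778%, against 1.53% over all CpGs.

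With strands averaged, the CpG at 35647059 had the most calls of the span, in 5 contrasts. Its levels were 95.7%, 94.0% and 95.3% on the first strand in Low Control and 93.6%, 91.1% and 90.6% on the second. In Low ×5 they were 96.0%, 96.1% and 97.0% on the first and 97.0%, 96.3% and 95.2% on the second, above every Low Control value of the same strand. In High Control, the first strand was at 97.0%, 97.4% and 96.9% and the second at 96.7%, 95.9% and 93.9%. The High ×5 libraries were lower on the first strand, at 95.9%, 90.7% and 94.7%, without overlap, while on the second strand they were at 90.2%, 91.5% and 95% and overlapped with High Control. The averaged differences were 0.83 for Low ×5 vs. Low Control (SE 0.242, limma adjusted p = 0.323) and -0.95 for High ×5 vs. High Control (SE 0.242, limma adjusted p = 0.542), on the log2 scale of M-values. Neither strand was under 90.2% in any library. The CpG at 35646353, at 90.5% and named after its values were seen, was called in 3 contrasts on this scale, with 0.99 for Low ×5 vs. Low Control (SE 0.238, limma adjusted p = 0.304).

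On its own, the second cytosine of this CpG, 35647060, was higher in Low ×5 than in Low Control by 1.19 on the log2 scale (SE 0.353, limma adjusted p = 0.363), and its partner 35647059 by 0.48 (SE 0.277, limma adjusted p = 0.677), which was not called. The call at 35647060 was lost with levels as fractions, without replicate 1 and without replicate 2. This cytosine was also called in High ×5 vs. Low ×5 (-1.06), under 2 of 8 alternatives. In High ×5 vs. High Control, 35647059 differed by -1.08 (SE 0.277, limma adjusted p = 0.491). That call was lost with levels as fractions, without replicate 2, without replicate 3 and in the 6 libraries of the contrast alone. The other call at 35647059, High Control vs. Low Control (0.81, limma adjusted p = 0.515), was made under none of the alternatives.

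Among member calls in the contrasts of treatments, leaving aside the interaction terms, the cytosine at 35648271 had the smallest p, in High Control vs. Low Control. Its levels were 45.2%, 50% and 55.6% in Low Control and 74.1%, 60.6% and 80% in High Control, without overlap. The Low ×5 libraries, at 68.3%, 69.2% and 70.0%, were also above Low Control, and Low ×2.5 was between, at 53.8%, 68.8% and 59.2%. The differences from Low Control were 1.36 for High Control (SE 0.345, limma adjusted p = 0.440) and 1.15 for Low ×5 (SE 0.345, limma adjusted p = 0.371). Both were lost without replicate 1 and without replicate 3. The partner 35648270 was at 71.7%, 60.0% and 61.9% in Low Control and at 78.6%, 61.8% and 65.4% in High Control, which overlap, with a difference of 0.29 (SE 0.489, limma adjusted p = 0.930).

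The cytosine at 35646410 was the only member called in 3 contrasts, all of which involve High ×2.5. There it was at 74.2%, 80% and 61.5%, below all 15 other libraries, which lay between 80.6% and 87.9%. The difference was -1.14 from High Control (SE 0.291, limma adjusted p = 0.949) and -0.93 from Low ×2.5 (SE 0.291, limma adjusted p = 0.945). High ×5 was higher than High ×2.5 by 0.92 (SE 0.291, limma adjusted p = 0.643). All 3 calls were lost without replicate 1, without replicate 3 and in the 6 libraries of the contrast alone. The partner 35646409 was at 86.2%, 88.5% and 65.9% in High ×2.5, where the other treatments ranged from 73.3% to 87.5%, and its difference from High Control was -0.19 (SE 0.417), which was not called.

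At 35646191, the High ×5 libraries were at 87.0%, 83.3% and 69.8%, and those of Low Control at 64.3%, 70.7% and 54.3%. The difference was 1.30 (SE 0.353, limma adjusted p = 0.490), and 1.12 from High ×2.5 (SE 0.353, limma adjusted p = 0.643). Replicate 3 of High ×5 was within the range of the other treatments. Both calls were lost without replicate 1 and in the 6 libraries of the contrast alone. The partner 35646192 was at 63.6%, 66.7% and 67.7% in High ×5, with a difference of -0.31 from Low Control (SE 0.275, limma adjusted p = 0.843). Both strands of the CpGs with the smallest p are plotted by library.

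**Figure D5:**
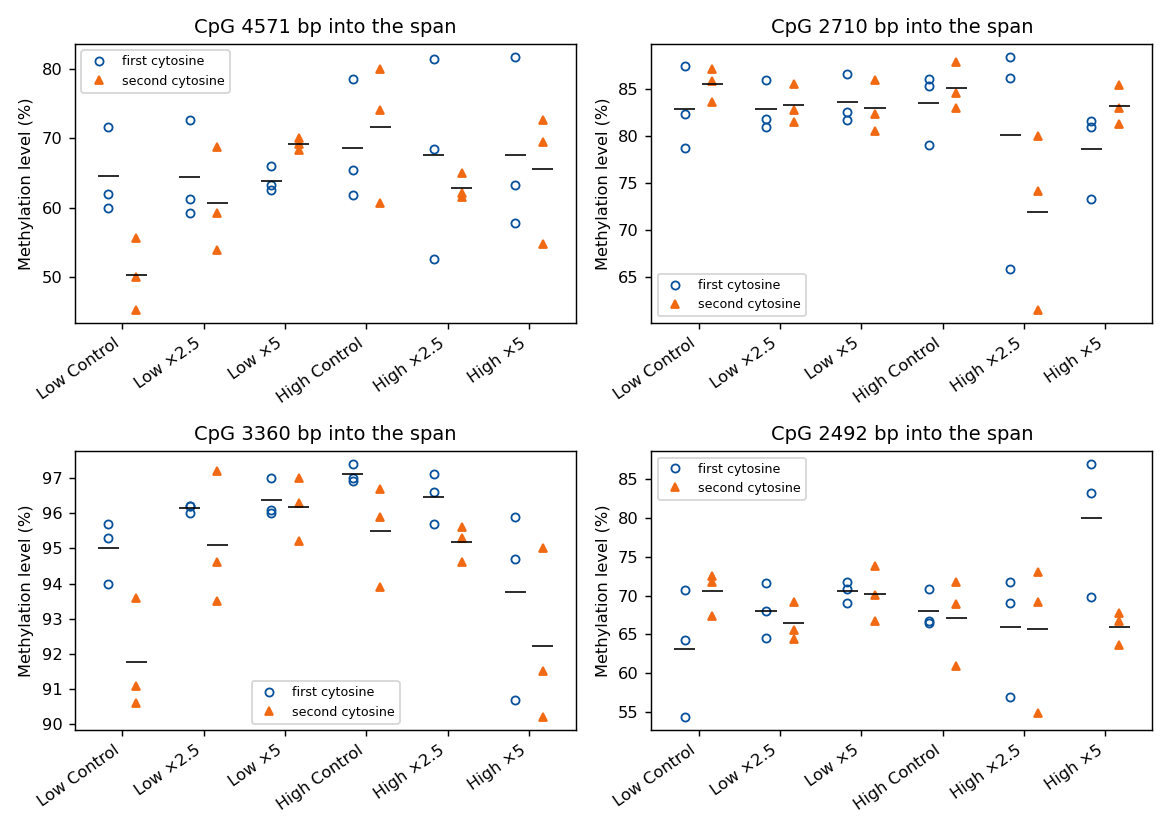
Methylation level (percent, axes differ between panels and do not start at 0) in each library at both cytosines of the 4 CpGs with the smallest p in any contrast and both strands measured, 35648270, 35646409, 35647059 and 35646191, named by their distance from the start of the span. Black lines are the means of 3 libraries. In the panel of the CpG 3360 bp into the span both strands have a higher mean in Low ×5 than in Low Control and a lower mean in High ×5 than in High Control, and in the other panels the means of the called strand differ from those of its partner.

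The other members called in 2 contrasts showed the same features. The cytosine at 35643773 was at 81.5%, 79.7% and 82.8% in High ×5, below Low ×5 (88.3%, 87.0% and 88.0%) by -0.72 (SE 0.219) and below High ×2.5 by -0.68 (SE 0.219). At 35647078, Low Control was at 73.4%, 75.0% and 75.7%, below all 15 other libraries, and Low ×2.5 and Low ×5 were higher by 0.82 and 0.83 (SE 0.261). At 35647102, ×2.5 was lower than Control in both glucose levels, by -0.80 in Low and -0.84 in High (SE 0.269). The last, 35647973, was at 80.9%, 85.7% and 89.5% in Low Control and lower in Low ×2.5 (75.6%, 79.1% and 75.5%, difference -0.86, SE 0.254) and in High ×5 (70.6%, 77.8% and 78.8%, difference -0.93, SE 0.254). All are log2 differences, and the limma adjusted p-values of these calls were 0.380 to 0.949. With centred libraries, both calls at 35647078, the call of High ×5 vs. Low ×5 at 35643773 and that of High ×2.5 vs. High Control at 35647102 were lost. Without replicate 3, every call at these cytosines was lost. Those of High ×5 vs. High ×2.5 at 35643773 and of Low ×2.5 vs. Low Control at 35647102 were made under 3 of 9 alternatives, and never with a replicate left out. The partners 35643774, 35647077, 35647101 and 35647972 were called in no contrast. In Low ×5 vs. Low ×2.5, where no member was called, the smallest p was at 35647002, with 94.5%, 95.7% and 92.8% against 92.5%, 91.5% and 90.5%.

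Beside 3 other gene-assigned spans of the series, the cytosines of IL2 were the most even. The spans assigned to SFRP1 (an inhibitor of Wnt signalling), ARRDC3 (an arrestin-domain protein) and MAP2K6 (a MAP kinase kinase) hold 130, 127 and 71 cytosines. Their median SD of M-values within treatments was 0.465, 0.414 and 0.449, against 0.281 for IL2. Strands differed by a median of 3.97, 3.21 and 4.42 points there, over 16, 14 and 10 CpGs with both strands, against 1.21 points. Calls in the 10 contrasts were 2.46% of tests in SFRP1, 1.97% in ARRDC3 and 0.845% in MAP2K6, against 0.997% in IL2. Both strands were measured at 14.0% of CpGs in SFRP1, 12.4% in ARRDC3 and 16.4% in MAP2K6, against 83.9% in IL2, and the read depth of all 4 spans is unknown. These differences between spans, and the part of depth in them, were not tested.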

How the data were processed

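RRBS was done on 18 EBTr libraries. The authors trimmed reads with Cutadapt, mapped them to bosTau8 in the methylseq pipeline, called methylation with Bismark 0.22.3 (FastQC 0.11.8 and MultiQC 1.9 for quality, per the submitters' processing notes), and filtered cytosines on coverage. They deposited log2 M-values with an offset that is not given in the sources used here, so the lowest and highest levels are drawn inward by an unknown amount and read depth is unknown. Cytosines that failed the authors' coverage filter are absent, and the levels of those kept weigh no cytosine by its reads.

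Levels were computed from the M-values. Cytosines were fitted in limma 3.58.1 (R 4.3.3, 1 mean per treatment, eBayes, two-sided), all 31500 together, with Benjamini-Hochberg adjustment, and the steps were tested on simulated data. Span means were compared by exact permutation. Python 3.11.15, numpy 2.4.6, pandas 2.3.3, scipy 1.17.1 and matplotlib 3.10.9 were used.

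Groups and replicate numbers are those of the labels. The most alike pair of libraries had equal values at 1.16% of cytosines, so none was counted as a repeat. The members, lists and tests were chosen with earlier results of these data known. Named were the ends of the span, the member with the smallest p in each contrast, members called in 2 or more contrasts, those of highest and lowest level and of largest SD, their strand partners, and the 3 most alike regions. The alternatives were a trended and robust eBayes, the 6 libraries of a contrast alone, a replicate block, leaving out each replicate number, centred libraries, levels as fractions, members at 10% to 90%, and other ways to average the span. The authors' own lists of differential cytosines were used only for gene names and spans.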

Additional observations from a re-analysis of the deposited data

Results flagged for a closer look

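At 6 cytosines of the span, the response to EM differed between High and Low in the interaction term of the limma fit, at an unadjusted p under 0.01. At ×5, the difference of the log2 responses (High minus Low) was -2.01 at 35647060 (SE 0.499, limma adjusted p = 0.229) and -1.56 at its strand partner 35647059 (SE 0.392, limma adjusted p = 0.237), the only CpG with both strands in this list. It was -1.57 at 35648271 (limma adjusted p = 0.310), -1.90 at 35647045 (limma adjusted p = 0.328) and -1.27 at 35645999 (limma adjusted p = 0.323). At ×2.5 it was -1.03 at 35646371 (SE 0.344, limma adjusted p = 0.523), where Low Control was at 68.7%, 75.6% and 67.6%, Low ×2.5 at 81.0%, 77.8% and 82.0%, High Control at 78.2%, 79.2% and 81.7% and High ×2.5 at 72.4%, 82.7% and 73.2%. None passed the adjustment over all cytosines, of which 2.79% at ×5 and 1.85% at ×2.5 had a p under 0.01, mostly with the same sign at ×5 (701 of 880), a majority that was gone with centred libraries (381 positive and 364 negative). The ×5 interaction called 5 members in the main fit, 2 with levels as fractions, and 1 when only cytosines at a mean level of 10% to 90% were kept.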

How the results depend on the processing

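For the 10 contrasts of the span mean no exact p could be under 0.05, so p-values say nothing of their stability. Of 104 combinations of comparison and alternative, 19 turned the sign. Centred libraries gave -1.10 points for Low ×2.5 vs. Low Control, -1.17 for Low ×5 vs. Low Control, -0.0720 for Low ×5 vs. Low ×2.5, 0.261 for High ×5 vs. High Control, 0.328 for High ×5 vs. High ×2.5, -0.593 for High Control vs. Low Control, 0.438 for High ×2.5 vs. Low ×2.5, 0.838 for High ×5 vs. Low ×5 and 0.228 for High vs. Low. The median over cytosines gave -0.281 for Low ×5 vs. Low ×2.5 and 0.199 for ×2.5 vs. Control, which was 0.0222 from the mean M-value. Leaving out a replicate gave -0.277 to 0.306 for Low ×5 vs. Low ×2.5, -0.566 to 0.134 for High ×5 vs. High ×2.5, -0.868 to 0.0268 for High ×2.5 vs. Low ×2.5, -0.479 to 0.253 for High ×5 vs. Low Control, -0.182 to 0.0641 for High vs. Low and -0.207 to 0.0574 for ×2.5 vs. Control. The cause was not tested.

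Counts of called members, small throughout, moved by over 1.5 times as follows. In Low ×2.5 vs. Low Control (5), they were 3 with the trended robust eBayes, 3 with the replicate block, 0 in its 6 libraries alone and 0 to 5 without a replicate. In Low ×5 vs. Low Control (6), they were 3 with the replicate block, as fractions and in 6 libraries, 2 at levels of 10% to 90%, and 1 to 5 without a replicate. Low ×5 vs. Low ×2.5 (0) had 0 to 1 without a replicate. High ×2.5 vs. High Control (3) had 1 as fractions, 0 in 6 libraries and 1 to 2 without a replicate. High ×5 vs. High Control (1) had 4 with the replicate block, 3 centred, 0 as fractions and 1 to 3 without a replicate. High ×5 vs. High ×2.5 (4) had 2 with the replicate block, 2 in 6 libraries and 1 to 5 without a replicate. High Control vs. Low Control (3) had 1 in 6 libraries and 1 to 4 without a replicate. High ×2.5 vs. Low ×2.5 (1) had 0 in 6 libraries and 0 to 2 without a replicate. High ×5 vs. Low ×5 (2) had 0 centred, 1 as fractions, 1 at 10% to 90% and 1 to 2 without a replicate. High ×5 vs. Low Control (8) had 1 in 6 libraries and 3 to 5 without a replicate. The F-test (2) had 1 with the trended robust eBayes, 1 with the replicate block, 0 as fractions and 1 to 2 without a replicate, and High vs. Low (1) had 2 with the replicate block and 1 to 3 without a replicate. The interaction at ×5 (5) had 3 centred, 2 as fractions, 1 at 10% to 90% and 1 to 3 without a replicate, and at ×2.5 (1) it had 0 to 4 without a replicate.

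Of the 33 calls, 24 were called again with the replicate block, 23 with centred libraries and 20 as fractions, all in the same direction, but 7, 12 and 6 without replicates 1, 2 and 3, and 6 in the 6 libraries of the contrast. Only 22 of the 33 could be tested at levels of 10% to 90%, and all 22 were called again there. None of the 33 was called under every alternative, where fewer samples also leave a larger error. Deviations of cytosines from their treatment means hardly correlated between same-numbered libraries (median r = -0.000275, over 0.1 in 1 of 45 pairs). Between different numbers the median r was 0.000882, over 0.1 in 0 of 90 pairs. Of 18 libraries, 8 correlated most with a library of their own number. A shift of a whole library does not enter such correlations, so whether the numbers pair the libraries was not settled. The number of reads behind each value is unknown and limits what small differences can show.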
